A study of Mus musculus with 4 samples.

Results

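Interferon-stimulated genes outside the large antiviral families were followed here in mouse microvascular smooth muscle cells: Rtp4, Ifi44, Ifi35, Xaf1, Parp14, Parp9, Trim30a, Lgals3bp, Ifi203 and Ifi27l2a, 10 genes in all. Each was looked for by the RefSeq accession that a probe carries, under its symbol or a synonym (Trim30 for Trim30a). In this way 9 of the 10 genes were found, on 13 probes, among 12387 genes and 23496 probes that could be tested. No probe carried an accession of Ifi203, which was not analysed here. The cells came from male Rap1a knockout mice on the C57BL6 strain, so both RNAs of every array lacked the intact Rap1a gene by label, and both had been exposed to a shuttle virus. In each of 4 biological replicates, RNA of cells that received the empty shuttle vector carried the dye Cy5, and RNA of cells that received the RapCA shuttle vector carried Cy3. The labels do not spell out RapCA, and the series title sets knockout against rescue. Cells were grown in 10% serum, transduced overnight without serum, and left for 48 h in 0.5% serum. The age of the mice is not stated, nor whether the replicates came from separate animals, so the errors below measure the spread between these 4 pairs of RNA. Both RNAs were hybridised to the same two-colour array, and all 4 arrays lay on 1 slide with the dyes the same way round, so dye and vector cannot be told apart.

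Type I interferons act through the receptor Ifnar1/Ifnar2 and the kinases Jak1 and Tyk2, and a complex that includes Stat2 and Irf9 then binds interferon-stimulated response elements in the promoters of target genes. Many target genes keep a basal level in unstimulated cells. The products studied here have unlike tasks. Rtp4 is a Golgi chaperone for G protein-coupled receptors, Ifi44 an antiviral protein with a GTP-binding motif, Ifi35 a cytosolic partner of Nmi, and Xaf1 an antagonist of the apoptosis inhibitor Xiap. Parp14 and Parp9 are macrodomain proteins of the ADP-ribosyltransferase family, and Parp9 works with the ubiquitin ligase Dtx3l. Trim30a is a tripartite-motif ubiquitin ligase that restrains Toll-like receptor signalling, Lgals3bp a secreted glycoprotein that binds galectin-3, Ifi27l2a a small hydrophobic protein of the ISG12 family, and Ifi203 a HIN-200 protein of the nucleus.

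Promoter letters are shown for the 5 measured genes that have a RefSeq entry, which fell by very unlike amounts, from 20.2-fold for Ifi44 to 1.66-fold for Ifi35. The sequences are the 150 bases before the annotated start, from RefSeq on build GRCm38.p6, written 5′ to 3′ along the gene's strand. Capitals mark AAANNGAAA on either strand, a shorter form of the core of the response element. The windows lie at chr3:151749911-151750060 (minus strand) for Ifi44, chr7:104465194-104465343 (minus strand) for Trim30a, chr11:118401960-118402109 (minus strand) for Lgals3bp, chr11:72301479-72301628 (plus strand) for Xaf1 and chr11:101448262-101448411 (plus strand) for Ifi35.
Ifi44: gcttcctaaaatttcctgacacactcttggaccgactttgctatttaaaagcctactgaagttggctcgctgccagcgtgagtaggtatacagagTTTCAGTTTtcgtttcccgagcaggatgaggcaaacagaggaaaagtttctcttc
Trim30a: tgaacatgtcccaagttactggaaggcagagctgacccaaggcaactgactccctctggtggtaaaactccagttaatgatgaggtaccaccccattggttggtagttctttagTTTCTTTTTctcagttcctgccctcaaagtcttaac
Lgals3bp: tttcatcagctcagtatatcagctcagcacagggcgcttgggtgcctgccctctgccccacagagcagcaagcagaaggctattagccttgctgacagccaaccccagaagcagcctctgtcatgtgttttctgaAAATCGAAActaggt
Xaf1: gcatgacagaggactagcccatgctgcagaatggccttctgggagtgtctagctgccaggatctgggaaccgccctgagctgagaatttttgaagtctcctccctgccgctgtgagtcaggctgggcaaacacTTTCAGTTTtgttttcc
Ifi35: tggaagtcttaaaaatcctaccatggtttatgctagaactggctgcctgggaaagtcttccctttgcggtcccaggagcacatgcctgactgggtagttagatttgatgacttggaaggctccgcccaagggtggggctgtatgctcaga
The match lay 55 to 47 bases before the start in Ifi44, 36 to 28 in Trim30a, 15 to 7 in Lgals3bp and 17 to 9 in Xaf1. The second Trim30a window of the table held its match after the start and none in the 150 bases before it. Ifi203, which has a promoter entry but no probe, held it 34 to 26 bases before the start of 1 of its 2 windows. Over the whole windows of 300 bases (250 before to 50 after the start), the shorter form was found in 5 of the 6 genes with an entry. By window, it was found in 6 of the 8 of these genes and in 10.6% of all 32851. It was chosen after the windows of these genes had been read. The full core (GAAA, any 2 bases, then GAAA, on either strand), which contains the shorter form, was found in 2 of the 6 genes, Trim30a and Ifi203. By window, it was found in 3 of the 8 and in 3.44% of all windows. A longer core, with a C added at its end, was found in Trim30a alone (2 of the 8 windows) and in 0.819% of all windows. The STAT core TTCNNNGAA was found in Ifi35 alone (1 of the 8 windows), just after its start, and in 8.3% of all windows. The matches describe letters in these windows and are not evidence of binding. No entry was held for Rtp4, Parp14, Parp9 and Ifi27l2a.

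Ratios are given as log2 of Cy3 (RapCA label) over Cy5 (vector label), so that negative values mean a lower signal under the RapCA label, and ± is the SD over 4 arrays. The targeted gene, Rap1a, had a lower signal under the RapCA label. Its probe gave -0.46, -1.02, -1.31 and -1.47 on replicates 1 to 4, a mean of -1.06 ± 0.44 (limma adjusted p = 0.00204), and was well above background in both channels of every array. Under a rescue that this probe reads, the signal would be higher, not lower. The labels do not say what RapCA encodes or whether this probe would read it, so the probe cannot settle the dye labels. Whether the labels are swapped, which would reverse every direction below, was not tested. Every direction below rests on those labels alone. Replicate 1 stood apart from the other arrays: its ratios correlated with theirs at 0.69 to 0.78 across probes, against up to 0.98 among the others, and 51.3% of its spots were above background in Cy5 against 60.1% to 61.9%. Without it, the Rap1a ratio was -1.27. Of 9 smooth muscle markers, 7 exceeded background on every array in Cy3 and Cy5 alike, while Myocd and Des were above it on none. Of 10 macrophage and dendritic cell markers, 6 were above background on no array (Ptprc, Adgre1, Itgam, Itgax, Aif1, Tyrobp), while Csf1r, Cd14 and Fcer1g were above it in both channels without passing the test, and Lyz2 was called higher at 0.52. Lyz2 was above background in Cy5 on no array, so it was tested only through the channel where it is higher. Of 7 endothelial markers, 4 were on none (Pecam1, Cdh5, Tie1, Emcn), Vwf (-2.03) and Kdr (-0.75) were called lower and Tek (1.16) higher. Tek was above background in Cy5 on 2 of the 4 arrays. Of 4 tested fibroblast markers, 3 were called higher (Dcn 3.88, Dpt 2.76 and Col1a1 2.40) and Pdgfra was not called. Among 3 tested pericyte markers, Pdgfrb (1.78) and Cspg4 (0.88) were called higher and Kcnj8 (-0.40) lower. Kcnj8 was above background in Cy3 on 3 of the 4 arrays. Among 7 tested smooth muscle markers, 4 were called higher, led by Tagln (2.13), and Myh11, Cnn1 and Smtn were not called. The epithelial marker Krt19 (-1.25) was called lower, while Krt5 was not called and Epcam and Cdh1 were above background on no array. The part of these shifts in the results below was not tested. In RNA from whole cultures, fewer cells of a type and less RNA per cell cannot be told apart.

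All 9 measured genes had a lower signal under the RapCA label, and all 13 of their probes passed the test in that direction (limma, Benjamini-Hochberg adjusted p under 0.05 over all probes). The dimmest Parp14 probe was above background on 4 arrays in the vector channel and on 1 in the RapCA channel. It was thus tested only through the channel where it is higher, so its call adds no support. The background was broad: of all probes tested 49.6% were called and 23.2% were called lower, and of all genes tested 24.9% were called lower, 28.9% higher and 53.9% in either direction. Without replicate 1, all 9 genes were again called lower, where 71.1% of all genes were called, 34.0% lower and 37.1% higher. With each array centred on its median the split over all genes was 2476 lower and 1543 higher, against 3089 lower and 3582 higher otherwise. A call alone thus sets a gene little apart on these arrays. The genes were chosen with earlier results of these data known, so the contrasts that follow describe them and are no test. Of the 9 genes, 8 fell by at least 2-fold, against 7.48% of all genes tested. Their median ratio was -2.75, beside a median of 0.02 over all genes. In the normalised signals of the separate channels, the 4 RapCA values lay below all 4 vector values for every one of the 9 genes, which held for 20.7% of all genes tested. Each of the 9 was lower on all 4 arrays, as were 29.4% of all genes tested.

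**Figure D1:**
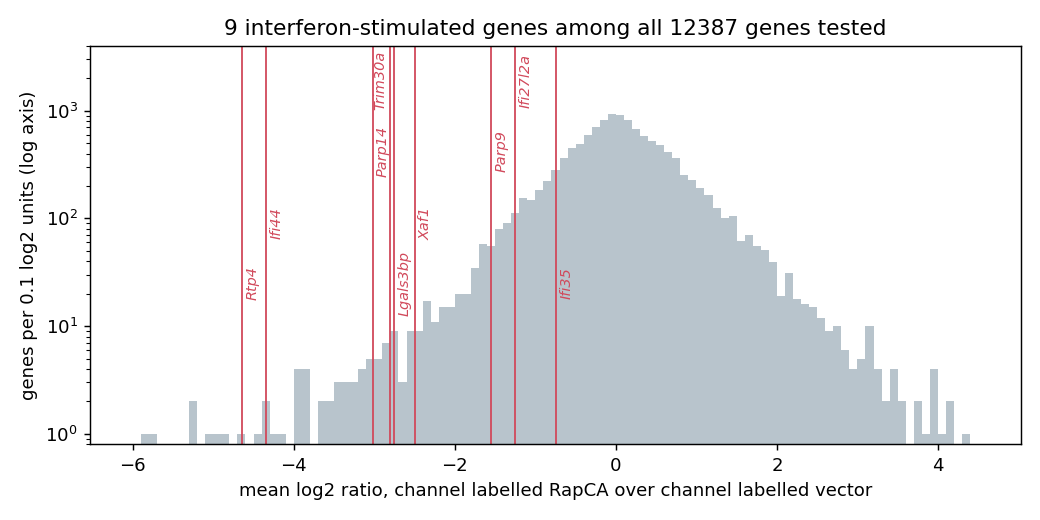
Histogram of the mean log2 ratio (RapCA channel over vector channel, horizontal axis) over all 12387 genes tested, with the number of genes on a log axis, and a red line at each of the 9 measured interferon-stimulated genes. The lines run from -4.64 for Rtp4 to -0.74 for Ifi35, all left of the centre of the bulk near 0.02. Ifi35 lies within the bulk, with its probe at percentile 10.3 from the lowest of all probes tested.

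Rtp4 had the lowest ratio of the 9 after loess with the offset of 50, whereas Ifi44 was lower with an offset of 10 (-5.09 against -4.74) and in the scanner software's ratio (-5.71 against -4.87). It was -4.46, -5.17, -4.42 and -4.53 on replicates 1 to 4, so that 3 arrays lay close together and replicate 2 lay lower. The mean was -4.64 ± 0.35 (95% interval -4.99 to -4.30), a 25-fold lower signal (limma adjusted p = 6.94e-06), and only 7 of the 12387 genes had a lower ratio. Before normalisation, the signal above local background was 592.5, 457.5, 828.5 and 840.5 units in the RapCA channel against 11244, 31495, 38813.5 and 34544.5 in the vector channel. On replicates 2 to 4 this gap was wider than after normalisation. The lowest vector value was on replicate 1, yet it was many times every RapCA value. The other receptor transporters of the family, Rtp1, Rtp2 and Rtp3, were above background on no array.

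Ifi44 came next in order, with -3.33, -4.73, -4.52 and -4.77. Replicates 2 to 4 agreed closely and replicate 1 lay nearer to 0. The mean was -4.34 ± 0.68 (95% interval -4.90 to -3.77), or 20.2-fold lower (limma adjusted p = 3.3e-05), and -4.67 ± 0.13 without replicate 1, or 25.5-fold. The normalised log2 signal in the vector channel was 10.14 on replicate 1 and 11.09 to 11.61 on the others, while in the RapCA channel it was 6.82, 6.36, 7.02 and 6.84. The RapCA signals were dim, 19 to 44 units above local background, so the size of the fall depended on the background correction. It was 34-fold with a smaller constant added to each signal (offset 10 in place of 50) and 52.3-fold in the scanner software's own ratio. Its close relative Ifi44l was above background on no array.

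Parp14 and Parp9 both fell, by amounts that depended on the probe and the array. The brightest Parp14 probe gave -2.45, -3.23, -2.87 and -3.54, a mean of -3.02 ± 0.47 (95% interval -3.44 to -2.60), or 8.13-fold lower (limma adjusted p = 3.99e-05). Without replicate 1 it was -3.22 ± 0.34. Its vector signals of 10.92 to 12.61 lay well above its RapCA signals of 8.48 to 9.52 on the log2 scale. Parp9 gave -0.58 on replicate 1 and -1.73, -1.82 and -2.05 on replicates 2 to 4. The mean was -1.55 ± 0.66 (95% interval -2.09 to -1.0), or 2.92-fold lower (limma adjusted p = 0.00152), and -1.87 ± 0.16 without replicate 1, or 3.65-fold. Before normalisation, the signals above local background on replicate 1 were 154 units under the RapCA label and 176.5 under the vector label. The median Cy5 signal of that array was 37 units, against 75.5 to 83.5 on the others, so these raw values do not measure the difference. The RapCA signals of Parp9 hardly varied over the 4 arrays (7.99, 8.14, 8.26 and 8.08), whereas its vector signals were 8.57 on replicate 1 and 9.87, 10.09 and 10.12 on the others.

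Parp14, Dtx3l and Parp9 stand next to each other on chromosome 16 in the RefSeq gene order. Dtx3l had no matched probe. The genes on either side of the 3 did not pass the test: Hspbap1 gave -0.16 ± 0.19 (limma adjusted p = 0.281) and Kpna1 -0.50 ± 0.54 (limma adjusted p = 0.0716). Kpna1 did pass without replicate 1, at -0.75 (adjusted p = 0.00103). Of 17 genes that flank the 9 measured ones, 10 were tested, of which 4 were called lower, 4 higher and 2 neither. Trim30d and Ifi27, relatives of the genes they flank, were among those called lower. In the wider family of ADP-ribosyltransferases, 6 of 11 tested relatives were called lower and 3 higher. Over all genes tested, 24.9% were called lower and 28.9% higher. The falls were led by Parp10 at -1.62 ± 0.45, Parp12 at -1.61 ± 0.19 and Tiparp at -1.53 ± 0.56, of which Parp12 and Parp10 are themselves known as interferon-stimulated. The DNA repair enzyme Parp1 gave -0.71 ± 0.50 (limma adjusted p = 0.0164), a call that was lost without replicate 2, 3 or 4 and with median centring. Parp4, of the vault particle, gave 1.09 ± 0.30 (limma adjusted p = 0.00062), and with median centring neither it nor any other listed relative was called higher.

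Trim30a was measured by a pair of probes. The brighter gave -2.19, -2.94, -2.77 and -3.28, a mean of -2.80 ± 0.46 (95% interval -3.21 to -2.38), or 6.94-fold lower (limma adjusted p = 4.84e-05), and 7.99-fold lower without replicate 1. The dimmer gave -1.92, -3.30, -2.97 and -3.46, a mean of -2.91 ± 0.69, or 7.53-fold lower. On both probes replicate 1 lay nearest to 0, and they differed from each other by 0.12 ± 0.27, less than their spread. All 6 tested tripartite-motif relatives were called lower, beside 24.9% of all genes tested. They ran from -2.39 ± 0.76 for Trim30d (-2.76 ± 0.17 without replicate 1) to -0.54 for Trim12c. With median centring Trim21, Trim34a, Trim25 and Trim12a lost their calls, and Trim34a and Trim25 also lost theirs without replicate 2, 3 or 4. Trim30d lies next to Trim30a and is very similar in sequence, and whether the probes tell these genes apart was not tested. Replicate 1 was also the array nearest to 0 for Trim21, an antibody receptor and ubiquitin ligase, at -0.33 against -1.05, -1.0 and -0.96.

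**Figure D2:**
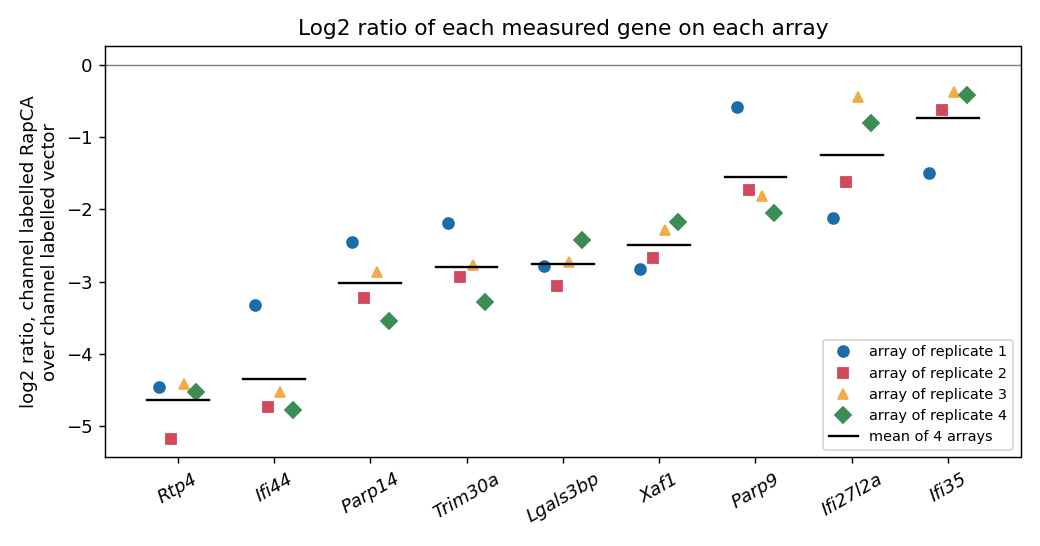
Log2 ratio (RapCA channel over vector channel, vertical axis) of each of the 9 measured genes, with 1 point per array and a bar at the mean of 4 arrays, after loess. Replicate 1 lies nearest to 0 for Ifi44, Parp14, Trim30a and Parp9, and lies furthest from 0 for Xaf1, Ifi27l2a and Ifi35, which with median centring holds for Ifi35 alone.

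Lgals3bp and Xaf1 were steadier across arrays. Lgals3bp gave -2.79, -3.06, -2.73 and -2.43, a mean of -2.75 ± 0.26 (95% interval -3.04 to -2.46), or 6.73-fold lower (limma adjusted p = 1.98e-05). This was a bright probe in both channels, with 105229 to 133902 units in the vector channel and 7767 to 12591 in the RapCA channel. Its ligand galectin-3, encoded by Lgals3, gave -1.5 ± 0.20 (limma adjusted p = 8.45e-05) and Lgals1 -1.26 ± 0.33, so that 2 of 3 tested galectins were called lower. The remaining one, Lgals9, was called higher at 0.54 ± 0.19. The shares over all genes tested were 24.9% lower and 28.9% higher.

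Xaf1 gave -2.82, -2.67, -2.28 and -2.17, a mean of -2.49 ± 0.31 (95% interval -2.81 to -2.17), or 5.61-fold lower (limma adjusted p = 3.11e-05), and -2.38 ± 0.26 without replicate 1. Its vector signal averaged 12.31 ± 0.25 on the log2 scale, and its RapCA signals were 9.81, 9.33, 10.01 and 10.15, with no overlap. Xiap, the caspase inhibitor that Xaf1 opposes, gave 0.02 ± 0.35 (limma adjusted p = 0.919, 95% interval -0.32 to 0.37). The related inhibitor Birc2 gave 0.25 ± 0.31 and did not pass, and Birc3 was called higher at 0.93 ± 0.27 (limma adjusted p = 0.00104), a call that median centring removed.

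Ifi27l2a and Ifi35 fell least, and both moved most on replicate 1. The brighter Ifi27l2a probe gave -2.12, -1.62, -0.45 and -0.81, a mean of -1.25 ± 0.76 (95% interval -1.87 to -0.63), or 2.38-fold lower (limma adjusted p = 0.00658). Without replicate 1 it was -0.96 ± 0.60 (adjusted p = 0.00594). The dimmer probe gave -1.78, -1.25, -0.14 and -0.71, a mean of -0.97 ± 0.70, in the same order of arrays, and lost its call without replicate 2 (adjusted p = 0.0566). Replicate 3 was thus the nearest to 0 on both probes after loess. With median centring the brighter probe gave -1.01 on that array. The vector signals of the brighter probe were 12.74 on replicate 1 and 11.64 to 11.65 on the others, and its highest RapCA signal, 11.19, was on replicate 3. Of its relatives, Ifi27l2b gave -1.44 ± 0.27, with -1.84 on replicate 1 and -1.27 to -1.36 on the others, and Ifi27 gave -0.39 ± 0.23 (limma adjusted p = 0.0288), a call that was lost in the scanner software's ratio and without replicate 2 or 3. Whether signals of these similar genes mix on the probes was not tested.

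Ifi35 gave -1.5, -0.63, -0.38 and -0.42, a mean of -0.74 ± 0.52 (95% interval -1.19 to -0.28), or 1.66-fold lower (limma adjusted p = 0.0167). Without replicate 1 it was -0.48 ± 0.14, or 1.39-fold, with an adjusted p of 0.00217. It did not pass when the channels were compared without pairing them by array (adjusted p = 0.0545, over a range of 5.33e-05 to 0.0545 for all alternatives). With each array centred on its median in place of loess, the 4 ratios were -1.15, -1.01, -0.95 and -0.83, so that replicate 1 no longer stood apart. Nmi, which binds Ifi35 and shares a domain with it, fell further and evenly, by -2.24, -2.58, -2.37 and -2.53, a mean of -2.43 ± 0.16 (limma adjusted p = 1.7e-05).

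Ifi203 was not analysed here, but 2 genes of its family were tested. Ifi204 gave -2.33 ± 0.55 (limma adjusted p = 0.000146), with all 3 of its probes called lower, and Ifi211, which lies beside Ifi203 on chromosome 1, gave -1.19 ± 0.37. HIN-200 genes are similar in sequence, and whether these probes tell them apart was not tested.

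**Figure D3:**
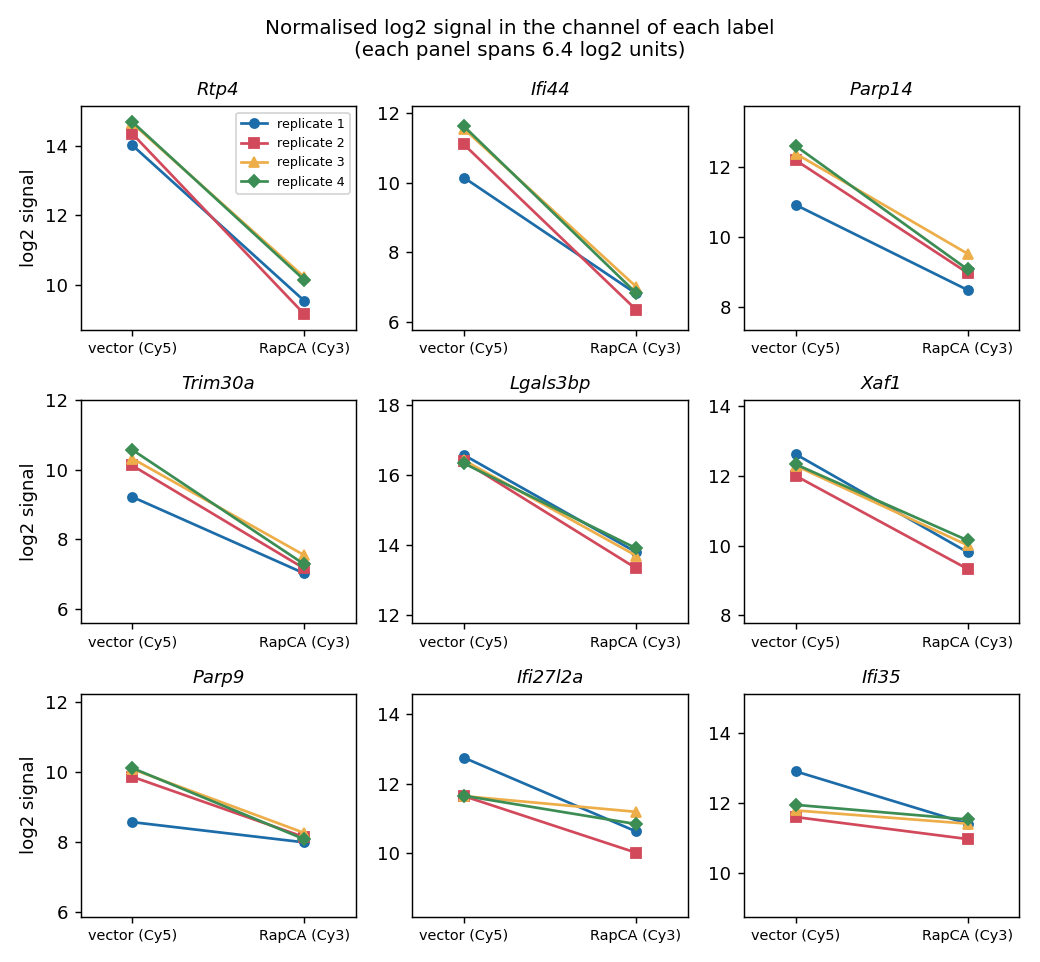
Normalised log2 signal of the 9 genes in the vector (Cy5) and RapCA (Cy3) channels, with 1 line per array and every panel spanning the same number of log2 units around its own centre. Lines fall to the right in every panel, and the vector signal of replicate 1 is the lowest of 4 for 5 genes and the highest of 4 for the other 4.

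In order of their means in the processing used in the text, the genes ran Rtp4, Ifi44, Parp14, Trim30a, Lgals3bp, Xaf1, Parp9, Ifi27l2a and Ifi35. Neighbours in that order were compared array by array with an exact sign-flip permutation test, two-sided, in which 4 arrays cannot give a p below 0.125. Rtp4 and Ifi44 differed by 0.31 ± 0.63, less than the spread. The gap from Ifi44 to Parp14 was the widest, 1.31 ± 0.34 and of 1 sign on all 4 arrays (exact p = 0.125). Between Trim30a and Lgals3bp the difference was 0.05 ± 0.60 and between Lgals3bp and Xaf1 0.26 ± 0.21, so the genes from -2.80 to -2.49 were not set apart. Xaf1 and Parp9 differed by 0.94 ± 0.93, with the same sign on all arrays. Parp9 and Ifi27l2a, at 0.29 ± 1.34, had no fixed order. Parp14 and Trim30a (0.23 ± 0.09) and Ifi27l2a and Ifi35 (0.52 ± 0.39) each kept their order on all arrays (exact p = 0.125). The order of Parp14 and Trim30a depended on the processing. Their means reversed with an offset of 10 (-3.16 against -3.22) and in the scanner software's ratio (-3.28 against -3.7). They kept their order without background correction (-3.08 against -3.02) and with median centring (-3.2 against -2.96). With median centring Lgals3bp (-3.32) lay below both.

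The place of replicate 1 differed between genes and with the normalisation. After loess, its ratio was the nearest to 0 of the 4 arrays for Ifi44, Parp14, Trim30a and Parp9, and the furthest from 0 for Xaf1, Ifi27l2a and Ifi35. With median centring it was the nearest to 0 for 7 of the 9 genes, Xaf1 among them (-2.34 against -3.02, -2.83 and -2.57), and the furthest for Ifi35 alone. Among all 3089 genes called lower, replicate 1 gave the smallest fall for 1610, or 52.1%. In the vector channel after loess and scaling, the signal on that array was the lowest of 4 for Rtp4, Ifi44, Parp14, Trim30a and Parp9, and the highest of 4 for Lgals3bp, Xaf1, Ifi27l2a and Ifi35. After loess, the median over the 9 genes was -2.45, -2.94, -2.73 and -2.43 on replicates 1 to 4. With median centring the arrays were less even, as for Parp14 at -1.86 on replicate 1 against -3.58, -3.41 and -3.93. Replicate 1 also had the lowest share of spots above background in Cy5, whose part in these differences was not tested.

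The 3 probes of Parp14 gave different sizes. Beside the -3.02 of the brightest, the others gave -1.23 ± 0.21 (limma adjusted p = 0.000198) and -0.90 ± 0.26 (limma adjusted p = 0.00111). The former differed from the brightest probe by 1.79 ± 0.28, with 1 sign on all arrays (exact p = 0.125). The dimmest probe was above background in the RapCA channel on 1 of 4 arrays, with 4 to 12.5 units there against 40 to 164 in the vector channel, so its ratio is held toward 0 by the offset and is no measure of the size. In the scanner software's ratio, which adds no constant, the 3 probes gave -3.28, -2.30 and -2.60. For Trim30a that ratio was -3.70 and -4.13, while both Ifi27l2a probes moved little.

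**Figure D4:**
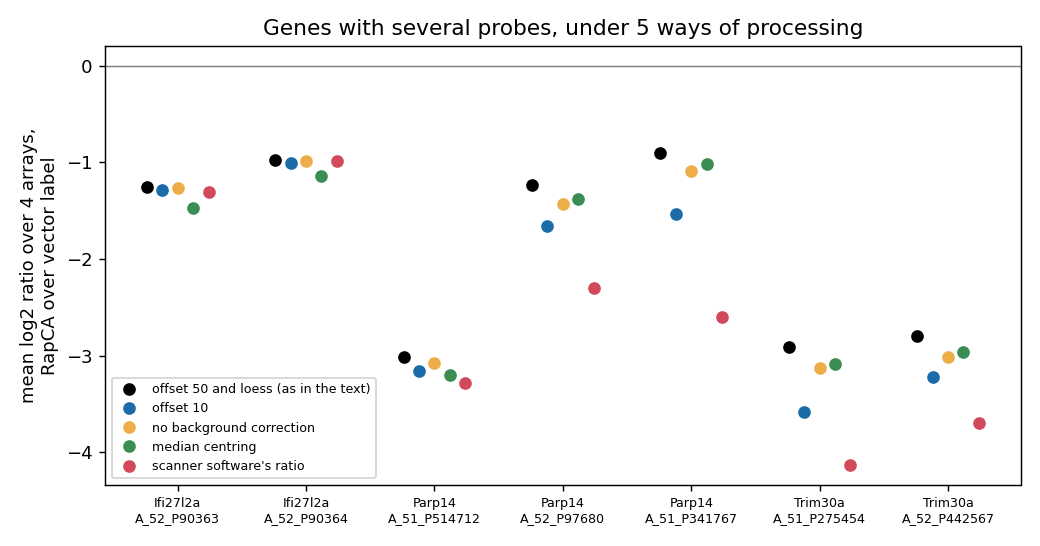
Mean log2 ratio over 4 arrays (vertical axis) of the 7 probes of Parp14, Trim30a and Ifi27l2a under 5 ways of processing, marked by colour. The dim Parp14 probe A_51_P341767 moves from -0.90 to -2.60 between the processing used in the text and the scanner software's ratio, and every point lies below 0.

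The other genes of the interferon pathway were taken from a list of 38 by role, of which 31 were tested. Of these, 15 were called lower, 6 higher and 10 neither, with a median of -0.33, beside 24.9% lower and 28.9% higher over all genes. No ligand could be tested: Ifnb1, Ifna4 and Ifng were above background on no array, Ifna2 in the RapCA channel on 2 arrays and in the vector channel on 3, and Ifnl2 had no matched probe. Of the receptor chains, Ifnar1 gave 0.80 ± 0.18, Ifngr1 0.85 ± 0.13 and Ifngr2 0.76 ± 0.23, all called higher by limma, and none of the 3 passed with median centring (adjusted p = 0.104, 0.103 and 0.0729). Ifnar2 gave 0.18 ± 0.18 and did not pass, although 1 of its 2 probes was called higher and the mean of both passed (0.51, adjusted p = 0.00593). Of the kinases, Tyk2 was called higher at 0.52 ± 0.20, and not with median centring (adjusted p = 0.163). Jak1 did not pass at 0.65 ± 0.75, with 1.76 on replicate 1 and 0.12 to 0.37 on the others, and passed without replicate 1 (0.28, adjusted p = 0.0207).

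Transcription factors of the pathway were called lower in 5 of 8 cases. Irf7, which is itself interferon-stimulated and amplifies interferon production, gave -2.79 ± 0.55 (limma adjusted p = 7.32e-05). Stat2 gave -1.43 ± 0.36 and Irf9 -1.10 ± 0.22, the latter on 1 of 2 probes. Feedback genes of the response were called lower in 5 of 6 cases, led by the ISG15 protease Usp18 at -3.69 ± 0.36 (limma adjusted p = 1.5e-05) and by Isg15 itself at -3.44 ± 0.47 (limma adjusted p = 2.56e-05). Sensors of foreign nucleic acid and their adaptors were called lower in 5 of 10 cases, among them the RNA helicases Ifih1 at -2.40 ± 0.37 and Dhx58 at -2.32 ± 0.27. In the list of 49 relatives and binding partners, 33 were tested, of which 21 were called lower, 6 higher and 6 neither, with a median of -0.65. The counts in this paragraph stand beside 24.9% lower and 28.9% higher over all genes tested.

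**Figure D5:**
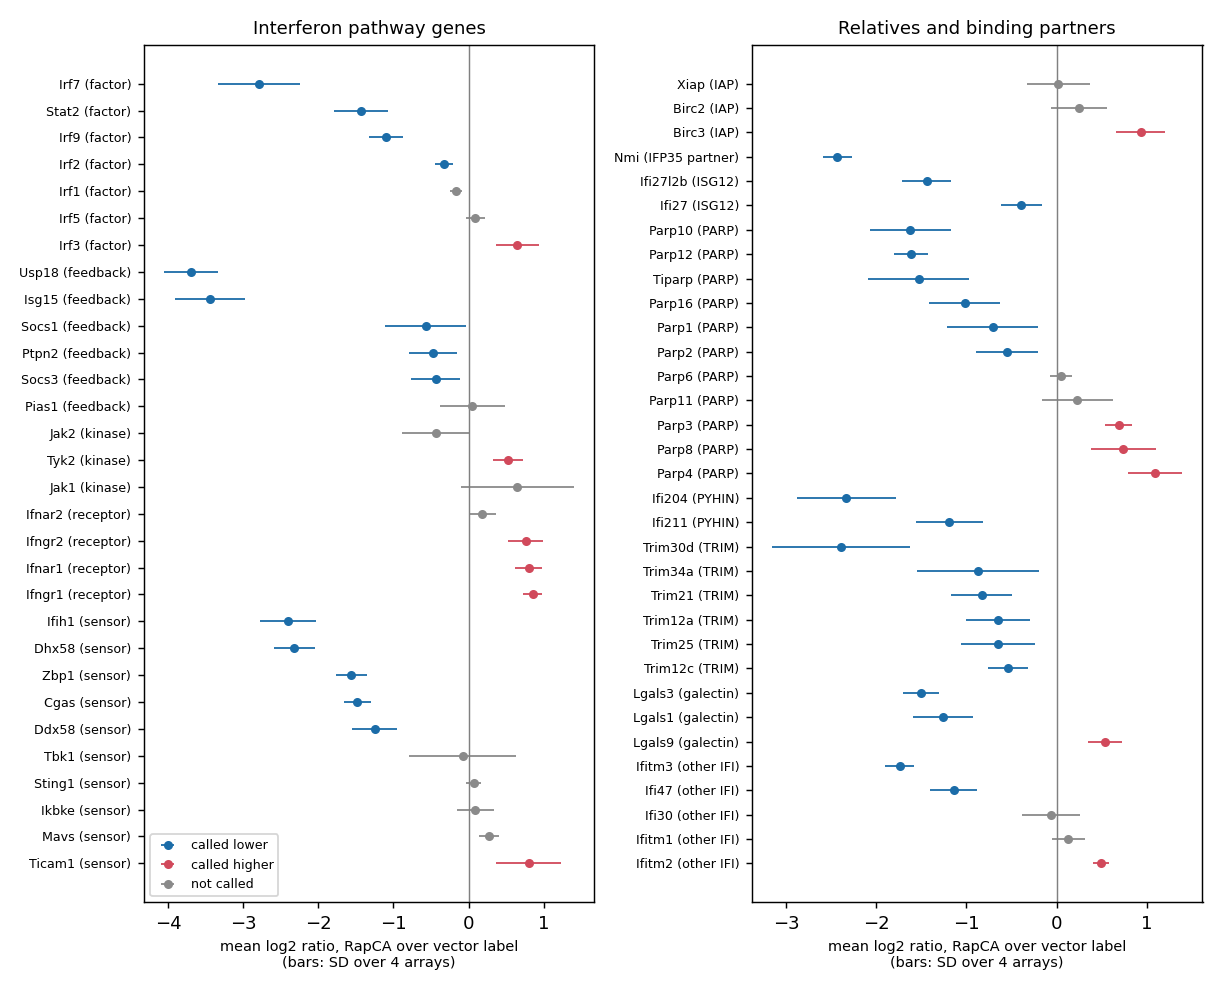
Mean log2 ratio with SD over 4 arrays (horizontal axis) of 30 of the 31 tested pathway genes (left) and relatives and partners (right), grouped by role and coloured by call. Of the 6 tested feedback genes 5, and all 6 tripartite-motif relatives are called lower in the loess-normalised data, while 3 of the 4 receptor chains are called higher there. With median centring 4 of those 6 relatives and all 3 chains lose their calls.

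The genes outside the 10 whose 4 ratios came nearest to the median of the 9 were named by the root mean square difference over the 4 arrays. They were Igtp, an interferon-inducible GTPase, at a distance of 0.092 and with a ratio of -2.59 ± 0.25, and Cmpk2, a mitochondrial nucleotide kinase encoded beside viperin, at 0.126 and -2.71 ± 0.18. Then came Fhod3, a formin that organises actin in muscle, at 0.231 and -2.64 ± 0.24, the homeobox gene Lhx2 at 0.273, whose place is not settled because its RapCA signal is only bounded, and Ch25h, the interferon-inducible cholesterol 25-hydroxylase, at 0.28 and -2.78 ± 0.23. Lhx2 was not above background in the RapCA channel on any array. Its signal was at least 5.43-fold lower there, taking the lowest signal above background on each array as its bound, which was not tested. The limma adjusted p of 1.5e-05 belongs to its unbounded ratio of -2.46. The probe was tested only through the vector channel, where it is higher, so that p is no support.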

How the data were processed

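Total RNA of 4 replicate pairs was hybridised to 4 two-colour Agilent arrays on 1 slide and quantified in Agilent Feature Extraction (10.7.3.1 per the file headers, whereas the submitters' processing notes give 10.9). The deposited intensity values used here are median spot signals and median local backgrounds, not normalized, per the file headers. The deposited log10 ratios, made by Feature Extraction after background subtraction and dye normalization per the file headers, served as an alternative. The series table equalled them within 5e-05 over 40929 probes, with column medians of 0.

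Signals were corrected with normexp (offset 50) and loess within arrays in limma 3.58.1 (R 4.3.3), with control spots at no weight and scanner outliers (94 to 137 spots an array) left out. No spot was saturated. Probes whose 4 Cy3 signals, or whose 4 Cy5 signals, were all above background were tested (23496 of 41174) with lmFit and eBayes against 0, over at least 3 arrays, with a call where the Benjamini-Hochberg adjusted p was under 0.05. A gene is given by its brightest tested probe. The offset draws ratios of dim probes toward 0. Separate channel signals are after loess and Aquantile scaling. The number of arrays limits the precision.

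Accessions were named through a RefSeq table (GRCm38.p6), for 64.8% of probes. The file headers name mm9, so no probe coordinates are given, and promoter coordinates are RefSeq's. The genes and lists were chosen with earlier results of these data known. Named are the 10 genes and their probes; pathway genes and relatives that passed with an absolute ratio of at least 2; Nmi, Dtx3l, Xiap and Lgals3; interferon ligands and receptors; and the 5 genes nearest by pattern. Other relatives, pathway genes, flanking genes and marker genes were named after their values were seen. A pathway gene that is not reported here was kept in every test and count. The tests were run on simulated data first. Alternatives covered background correction, centring, scanner ratios, filters, outlier spots, variance models, array weights, unpaired channels, probe choice and leaving out each replicate.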

Additional observations from a re-analysis of the deposited data

Results flagged for a closer look

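The probes of the 9 genes, of Rap1a and of the pathway, related, flanking and nearest genes given by value were examined. In 7 of these 56 probes, the array at 1 end stood further from the other 3 than Dixon's 95% critical value allows, and chance alone marks about 1 probe in 20. Rtp4, with a mean log2 ratio of -4.64, had replicate 2 apart at -5.17 (gap over range 0.855). Ifi27l2b, with a mean of -1.44, had replicate 1 apart at -1.84 (0.844). Jak1, with a mean of 0.65, had replicate 1 apart at 1.76 (0.849), and Birc3, with a mean of 0.93, had it apart at 1.33 (0.848). Trim34a, with a mean of -0.87, had replicate 1 apart at 0.14 (0.867). Trim21, with a mean of -0.83, had replicate 1 apart at -0.33 (0.879). Hspbap1, with a mean of -0.16, gave a gap over range of 0.903.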

How the results depend on the processing

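Over 16 alternatives, 143 of 144 mean ratios of the 9 genes kept their direction and their call, 1 lost its call (Ifi35 with unpaired channels) and none reversed. Of 687 ratios of other named genes, 26 lost their call, 6 gained one and none of those called with all arrays reversed. Changes of sign in genes not called were not counted, as for Xiap (0.02, and -0.04 without replicate 1). The dimmer Ifi27l2a probe also lost its call without replicate 2. All 9 genes were called lower without any 1 replicate, and their median then ran from -2.76 to -2.63, against -2.75 with all arrays. It was -2.49 when all tested probes of a gene were averaged. Pathway genes called lower ran from 10 to 17 and higher from 6 to 8 when a replicate was left out, and relatives from 16 to 21 and from 6 to 7. Genes called lower over all genes ran from 17.0% to 34.0% and higher from 21.4% to 37.1%. Median centring moved the median of all genes from 0.02 to -0.17, left 1 pathway gene and 0 relatives called higher, and 12.5% of all genes. Array quality weights, which gave replicate 1 a weight of 0.141, raised the genes called lower to 37.9%. The promoter count was 2 genes with the planned core, 1 with the longer form and 5 with the shorter form, which was chosen after seeing the data. The cause of these changes was not tested. Ifi44 ran from -5.71 in the scanner software's ratio to -4.19 without replicate 4, and Parp14 from -3.28 in that ratio to -1.72 with its probes averaged. Each ratio already pairs the 2 RNAs of an array, so no further pairing was fitted.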
